A study of Mus musculus with 8 samples.

Results

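The set described here holds 9 erythroid genes that are not globins: the transcription factor genes Gata1, Klf1 and Nfe2, the receptor gene Epor, the heme synthesis gene Alas2, the membrane genes Slc4a1, Rhag and Epb42, and Hemgn, which encodes a nuclear protein. They were taken by name from the table that compares GFP-positive with Tomato-positive cells, and are 9 of its 16302 genes. Each was read in all 8 libraries. The study asked how gene expression differs between subdomains of the second heart field (SHF), the progenitor population in the pharyngeal region that adds cells to both poles of the heart tube. RNA was sequenced at embryonic day 9.5 from mouse cells sorted out of the micro-dissected SHF region.

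The GFP+ group holds 3 libraries of GFP-positive cells from Hoxb1GFP embryos, in which the green reporter is inserted at Hoxb1 and marks the posterior SHF. The Tomato+ group holds 3 libraries of Tomato-positive cells from Mef2c-Cre;RosatdT embryos. There, Cre under a Mef2c enhancer of the anterior heart field switches on a red reporter in the cells that made Cre and in their descendants. The GFP- and Tomato- groups are the cells without fluorescence that were sorted from each line, with 1 library each, and no library came from embryos without a reporter. The GFP signal follows a gene that is active when cells are sorted, whereas the Tomato signal is a lineage label. Embryos of 1 genotype were pooled, more than 3 per genotype, and nothing in the labels says whether the 3 libraries of a group came from separate pools. The p-values below therefore speak only of how these libraries varied, possibly for technical reasons, and the copy number of the Hoxb1GFP allele was not given in the sources used here.

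Red cells arise in the embryo first as primitive erythroblasts of the yolk sac, which enter the circulation while still nucleated and mature there. Gata1, with its cofactors, switches on the erythroid genes, and Klf1 acts with it on globin and membrane genes. Nfe2 pairs with small Maf proteins at globin and platelet gene control regions, and Epor carries the erythropoietin signal that keeps erythroid progenitors alive. Alas2 makes the first, rate-limiting step of erythroid heme synthesis. Band 3 (Slc4a1) exchanges chloride for bicarbonate and anchors the membrane skeleton, protein 4.2 (Epb42) steadies that link, and Rhag carries the Rh proteins.

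All 9 genes were lower in GFP+ than in Tomato+ cells, and for each of them the groups did not overlap. Of all genes tested, 27.4% had every GFP+ library below every Tomato+ library. Summed over the 9 genes, the 3 GFP+ libraries gave them 0.0017% to 0.0029% of the reads outside mitochondrial genes, against 0.0403% to 0.0421% in the 3 Tomato+ libraries. The share was 0.0649% in GFP- and 0.0924% in Tomato- cells (Wilson 95% intervals of 0.0638% to 0.066% and 0.0908% to 0.0941%, for counting error only), so that each negative library was above every sorted positive library. In bulk RNA of this kind, fewer cells of a type and less RNA per cell cannot be told apart.

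Promoters are shown first, as a description of the sequence at these genes. Their part in the differences between the sorted cells was not tested. RefSeq (GRCm38.p6) gave a promoter of 300 bases, 250 before and 50 after the start, for 7 of the 9 genes (not Nfe2 or Slc4a1). For Gata1 and Hemgn this promoter lies wholly inside the gene positions given further below. Any other start of a gene was not searched. Searched on both strands, the GATA motif (AGATAA or TGATAA) occurred in 6 of the 7, against 18.6% of 32851 promoters of the same length. The CACCC motif bound by Klf factors occurred in 5 of the 7, against 57.5% of all promoters. The Nfe2 motif (TGANTCA) occurred in 0 of the 7, against 7.81% of all promoters. For 6 of them the 160 bases that precede the start are printed 5′ to 3′ as the gene reads, with GATA and CACCC motifs of either strand in capitals.

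Gata1 (chrX:7967911-7968070, minus strand): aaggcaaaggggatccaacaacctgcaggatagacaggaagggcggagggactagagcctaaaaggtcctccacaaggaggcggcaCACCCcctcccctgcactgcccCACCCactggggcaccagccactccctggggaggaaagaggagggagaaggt
Klf1 (chr8:84901822-84901981, plus strand): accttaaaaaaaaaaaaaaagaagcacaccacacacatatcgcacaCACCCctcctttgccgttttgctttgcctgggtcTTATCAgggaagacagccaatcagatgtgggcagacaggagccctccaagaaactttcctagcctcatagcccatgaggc
Epor (chr9:21963577-21963736, minus strand): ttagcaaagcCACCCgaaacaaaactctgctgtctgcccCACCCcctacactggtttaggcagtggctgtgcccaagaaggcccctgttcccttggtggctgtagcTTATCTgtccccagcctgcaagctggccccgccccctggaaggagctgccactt
Alas2 (chrX:150547257-150547416, plus strand): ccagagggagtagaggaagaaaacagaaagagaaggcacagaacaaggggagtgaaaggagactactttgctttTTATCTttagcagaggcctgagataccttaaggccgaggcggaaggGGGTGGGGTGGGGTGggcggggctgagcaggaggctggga
Rhag (chr17:40810989-40811148, plus strand): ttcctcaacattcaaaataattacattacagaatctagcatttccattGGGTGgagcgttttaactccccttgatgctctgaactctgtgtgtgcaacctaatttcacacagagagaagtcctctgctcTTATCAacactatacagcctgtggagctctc
Hemgn (chr4:46404184-46404343, minus strand): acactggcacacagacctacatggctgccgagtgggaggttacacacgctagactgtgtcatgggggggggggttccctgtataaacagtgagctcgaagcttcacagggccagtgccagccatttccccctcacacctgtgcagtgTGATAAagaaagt

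Gata1 was the promoter without a GATA motif, with CACCC motifs that begin 74 and 52 bases before the start. In Klf1, Epor, Alas2 and Rhag a GATA motif and at least 1 CACCC motif lay within 150 bases of the start. In Alas2 the 3 CACCC motifs lie end to end. Hemgn carried GATA motifs 13 bases before the start and again just after it, and no CACCC motif. In Epb42 the single match was a GATA motif 226 bases before the start, outside the stretch printed for the others. A match is a run of letters, and no binding was measured here.

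Values are given as normalized reads, which are reads divided by the size factor of the library. Each library held 22668185 to 41597870 reads, and 1 read was worth 0.719 to 1.51 normalized reads. A count of 0 in a library allows up to 3 reads, or 2.16 to 4.53 normalized reads, which is the floor of the measurement. Gene positions are those of the GENCODE annotation of GRCm38. Mitochondrial genes took 32.7% to 51.4% of the reads, and replicate 2 of both sorted groups stood apart from replicates 1 and 3, which were nearly alike (chi-square per degree of freedom of 2.35 and 2.38, against 72.4 to 93.0 for pairs with replicate 2). Between GFP+ and Tomato+ cells, differences were fitted with limma on log2(normalized reads + 1) over 16153 genes, with p-values adjusted by the Benjamini-Hochberg method over all of them. The 9 genes all passed the filter on low values (a mean of at least 10 over the 6 libraries). Gata1, Klf1, Rhag, Hemgn and Epb42, with GFP+ means of 0.734 to 7.83, passed it only through their Tomato+ values. A gene this low in GFP+ cells could enter the test only if it was higher in Tomato+ cells.

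**Figure D1:**
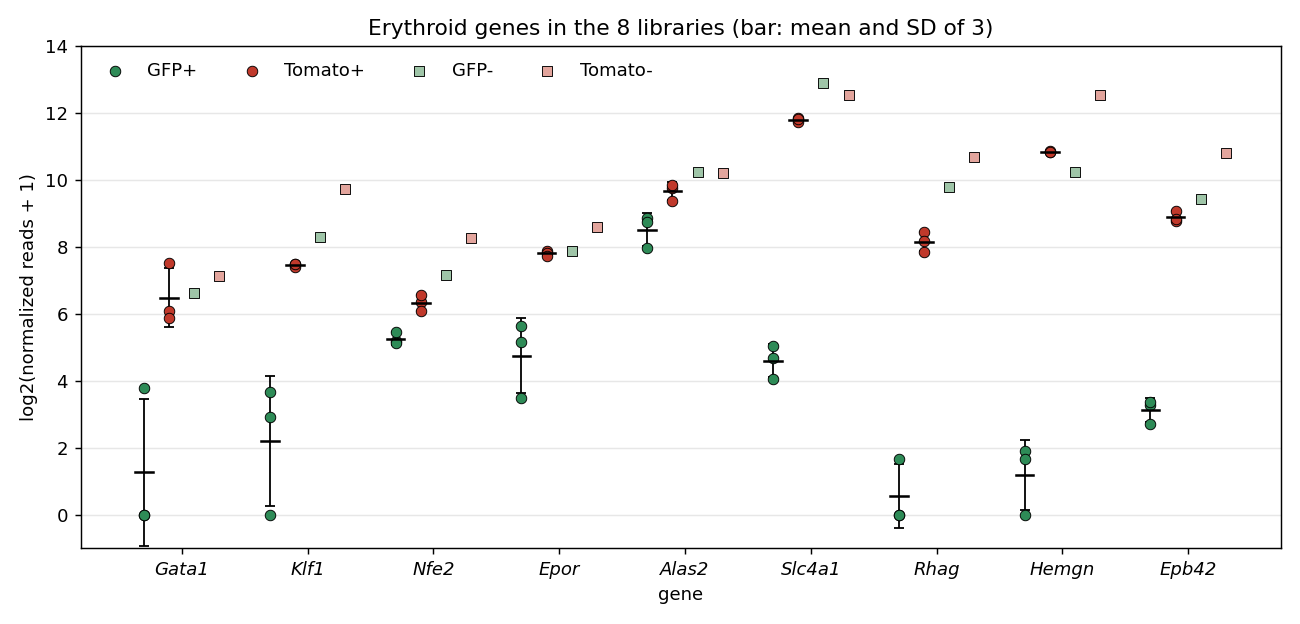
Level of each erythroid gene, as log2(normalized reads + 1), in the 3 GFP+, 3 Tomato+, 1 GFP- and 1 Tomato- libraries, with the mean and SD of each sorted positive group as bars. Circles are sorted positive and squares sorted negative cells, and in every gene the 3 GFP+ points lie below the 3 Tomato+ points.

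Among the regulators, Gata1 (chrX:7959260-7978071, minus strand) was measured at 0, 12.9 and 0 normalized reads in the GFP+ libraries, against 66.4, 181 and 57.5 in the Tomato+ libraries. The GFP- library had 97.3 and the Tomato- library 140. All 14 Gata1 reads of the GFP+ group came from replicate 2, and replicate 2 was also the highest of the Tomato+ group. The log2 difference between GFP+ and Tomato+ cells was -5.22 (SE 1.12, limma adjusted p = 0.00825). It was -6.49 without GFP+ replicate 2, -4.59 without GFP+ replicate 1 or 3, and -3.62 with a pseudocount of 5.

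Klf1 (chr8:84901928-84905291, plus strand) gave 11.7, 0 and 6.61 normalized reads in GFP+ libraries, against 179, 167 and 178 in Tomato+ libraries. The Tomato+ libraries were within a narrow range, with an SD of 6.81 around a mean of 175, while in GFP+ cells the SD of 5.87 was nearly as large as the mean of 6.10. The Tomato+ values rest on 197, 118 and 248 reads, for which counting error alone is larger than the SD of 6.81. The log2 difference was -5.26 (SE 0.90, limma adjusted p = 0.00303), with -4.16 without GFP+ replicate 2 and -5.99 without GFP+ replicate 1. Klf1 reached 314 normalized reads in GFP- and 850 in Tomato- cells, the highest value among the 3 regulators.

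Nfe2 (chr15:103248212-103258403, minus strand) had, with Alas2, one of the smallest differences of the set, and which of them was smaller changed with the libraries used. It had 35.1, 43.3 and 34.1 normalized reads in GFP+ libraries, against 80.1, 66.5 and 92.8 in Tomato+ libraries, with 142 in GFP- and 304 in Tomato- cells. The GFP+ mean was 37.5 ± 5.05 and the Tomato+ mean 79.8 ± 13.1 (SD, n = 3 each), a log2 difference of -1.06 (SE 0.33, limma adjusted p = 0.036). This call was lost when GFP+ replicate 1 or 3 was left out (adjusted p = 0.123 and 0.125) and when Tomato+ replicate 1 or 3 was left out (adjusted p = 0.126 and 0.16). It was also lost when replicates 1 and 3, which are nearly alike in both groups, were averaged (adjusted p = 0.41).

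Epor (chr9:21958897-21963506, minus strand), the receptor, had 34.4, 10.1 and 48.4 normalized reads in GFP+ libraries, against 232, 224 and 212 in Tomato+ libraries. The GFP- library, at 236, was close to the Tomato+ libraries, and the Tomato- library had 385. The log2 difference between GFP+ and Tomato+ was -3.05 (SE 0.53, limma adjusted p = 0.00336). GFP+ replicate 2 was the lowest of the 8 libraries, and without it the difference was -2.42.

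Per length of exon, Alas2 had the highest level of the set in GFP+ cells. It was measured at 464, 248 and 423 normalized reads in GFP+ libraries, against 871, 658 and 926 in Tomato+ libraries. Both negative libraries were higher and alike, at 1217 in GFP- and 1182 in Tomato- cells. The log2 difference between GFP+ and Tomato+ cells was -1.15 (SE 0.25, limma adjusted p = 0.00926). Alas2 (chrX:150547375-150570638, plus strand) lies within the gene model of Apex2 on the other strand (chrX:150519519-150589868), which shares 311 of its 2403 exon bases. The library kit does not mark strand, so that reads from the shared bases cannot be told apart. Apex2 itself had 1128 to 1181 normalized reads in GFP+ libraries, against 1091 to 1399 in Tomato+ libraries (log2 difference -0.05, limma adjusted p = 0.744). The part of Apex2 reads in the Alas2 values was not tested.

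The 3 membrane genes were low in GFP+ cells. Slc4a1 (chr11:102348824-102366203, minus strand), band 3, had 24.9, 15.7 and 31.9 normalized reads in GFP+ libraries, against 3651, 3365 and 3641 in Tomato+ libraries. It reached 7672 in the GFP- and 5955 in the Tomato- library, and is the only gene of the set besides Alas2 that was higher in GFP- than in Tomato- cells. The Tomato+ mean was 147 times the GFP+ mean, with a log2 difference of -7.20 (SE 0.25, limma adjusted p = 2.96e-06).

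Rhag (chr17:40811126-40840754, plus strand), the Rh-associated glycoprotein, had 0, 0 and 2.20 normalized reads in GFP+ libraries, against 347, 231 and 288 in Tomato+ libraries, with 876 in GFP- and 1631 in Tomato- cells. Only 2 reads were counted over the 3 GFP+ libraries, against 945 over the Tomato+ libraries. Corrected for library size, that is 0.201% of the Tomato+ level, with an exact 95% interval of 0.0243% to 0.729% that covers counting error only. The fitted log2 difference was -7.60 (SE 0.64, limma adjusted p = 0.000117), and it ranged from -8.91 to -5.68 over the alternative settings, the smallest size being that with a pseudocount of 5.

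Epb42 (chr2:121017891-121037072, minus strand), protein 4.2, had 8.78, 9.22 and 5.51 normalized reads in GFP+ libraries, against 436, 541 and 453 in Tomato+ libraries. The GFP- library had 688 and the Tomato- library 1787. The log2 difference was -5.78 (SE 0.33, limma adjusted p = 2.32e-05), and the Tomato+ mean was 60.8 times the GFP+ mean.

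Hemgn (chr4:46393989-46413506, minus strand), whose product hemogen is a nuclear protein of blood-forming cells, showed the greatest difference of the set. It had 0, 2.77 and 2.20 normalized reads in GFP+ libraries, against 1841, 1845 and 1833 in Tomato+ libraries. The Tomato+ values spread by a coefficient of variation of 0.319%, the smallest of the 9 genes, where Gata1 had 67.8%. The Hemgn values rest on 2023, 1303 and 2549 reads, for which counting error alone is larger. Their closeness is therefore no measure of how the gene varies. The log2 difference was -9.65 (SE 0.52, limma adjusted p = 1.68e-05), and -9.05 without GFP+ replicate 1. The GFP- library had 1206, which is under every Tomato+ library, and the Tomato- library had 5900. Hemgn was the only gene of the 9 besides Gata1 with a GFP- value below the Tomato+ mean.

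Across the set, 9 of 9 genes passed limma's test as lower in GFP+ cells, where 20% of all genes tested did, and 0 of 9 as higher, where 19.7% did. Gata1, Klf1, Rhag, Hemgn and Epb42 had entered that test only through their Tomato+ values. With edgeR and with DESeq2 on the recovered reads, 9 of 9 were also called lower, where 19.6% and 22.4% of all genes were. Scaling to reads outside mitochondrial genes kept 9 of 9, where 24.8% of all genes were lower, and changed the split over all genes to 4007 lower and 2379 higher, against 3224 lower and 3186 higher. The GFP+ libraries all lay below the Tomato+ libraries for 9 of 9 genes, which was so for 27.4% of all genes. The log2 differences ran from -9.65 to -1.06 with a median of -5.26, against a median of -0.01 over all genes. Hemgn and the membrane genes (Rhag, Slc4a1, Epb42) had the largest differences, Klf1, Gata1 and Epor lay between, and Alas2 and Nfe2 were lowest in size. The order of Epb42 against Klf1 and Gata1 turned in some settings. Without GFP+ replicate 1 Klf1 was at -5.99 and Epb42 at -5.87, without GFP+ replicate 3 Klf1 was at -5.62 and Epb42 at -5.57, and without GFP+ replicate 2 Gata1 was at -6.49 and Epb42 at -5.90. Alas2 was smaller in size than Nfe2 without GFP+ replicate 2 (-0.87 for Alas2 and -1.17 for Nfe2).

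**Figure D2:**
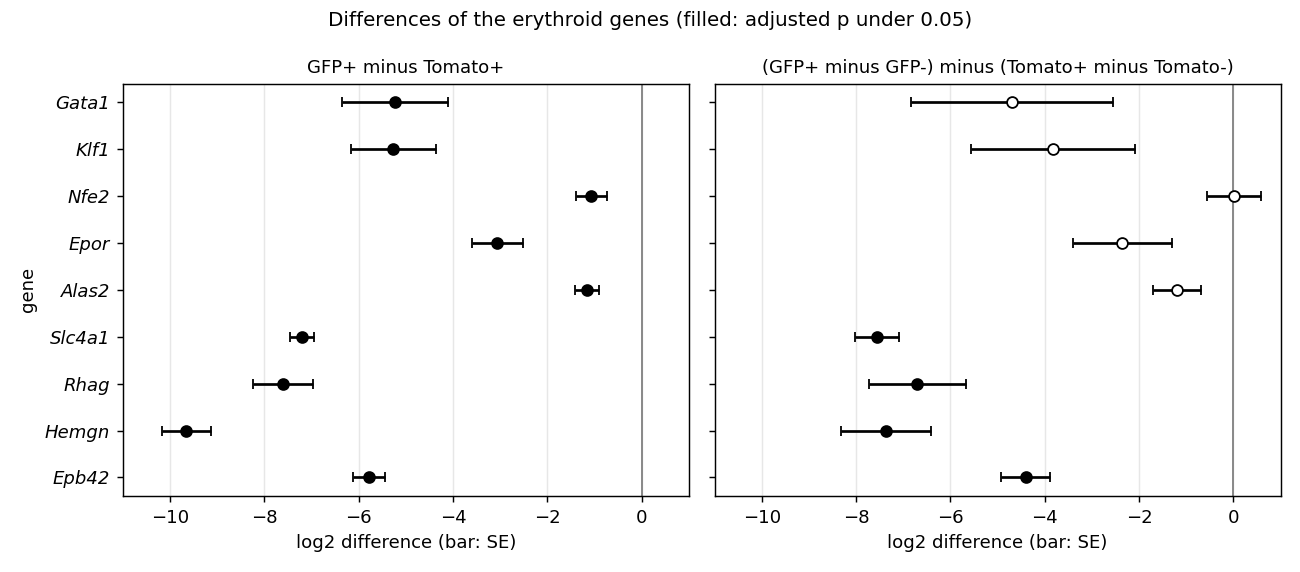
Log2 difference of each erythroid gene with its standard error, for GFP+ minus Tomato+ cells on the left and for the difference between the lines on the right, that is (GFP+ minus GFP-) minus (Tomato+ minus Tomato-). Filled points passed limma's adjusted p of 0.05, which 9 of 9 genes did on the left and 4 of 9 on the right.

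Per kilobase of exon, the order of the genes was not the same in both sorted groups. In GFP+ cells Alas2, whose values may hold Apex2 reads, stood at 157 normalized reads per kilobase. Below it came Epor at 15.6 and Nfe2 at 12.6, whose ranges overlapped. Slc4a1 followed at 4.94, Klf1 at 3.99, Gata1 at 1.76, Epb42 at 1.45, Hemgn at 0.659 and Rhag at 0.314, with overlap between each pair of neighbours from Slc4a1 on. In Tomato+ cells Hemgn at 733 and Slc4a1 at 726 per kilobase led, with overlapping ranges, and Alas2 came next at 341, apart from its neighbours. Rhag at 123, Klf1 at 114 and Epor at 112 overlapped from one to the next, Epb42 stood apart at 88.0, and Gata1 at 41.7 and Nfe2 at 26.7 overlapped. Nfe2 was thus near the top in GFP+ and the last in Tomato+ cells, while Hemgn was near the bottom in GFP+ and at the top in Tomato+ cells.

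The share that each gene took of the summed normalized reads of the 9, not corrected for length, differed in the same way. Alas2 made up 72.5% to 80.2% in GFP+ libraries, against 9.04% to 12.05% in Tomato+ libraries. Reads of Apex2 from the shared exon bases may be among those of Alas2, and their part in these shares was not tested. Slc4a1 made up 4.30% to 5.77% in GFP+ libraries, against 46.2% to 47.4% in Tomato+ libraries. Hemgn made up at most 0.809% in GFP+ libraries, against 23.9% to 25.4% in Tomato+ libraries. The negative libraries were unlike each other, with Slc4a1 at 61.6% and Hemgn at 9.69% in GFP- cells, against 32.8% and 32.5% in Tomato- cells.

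**Figure D3:**
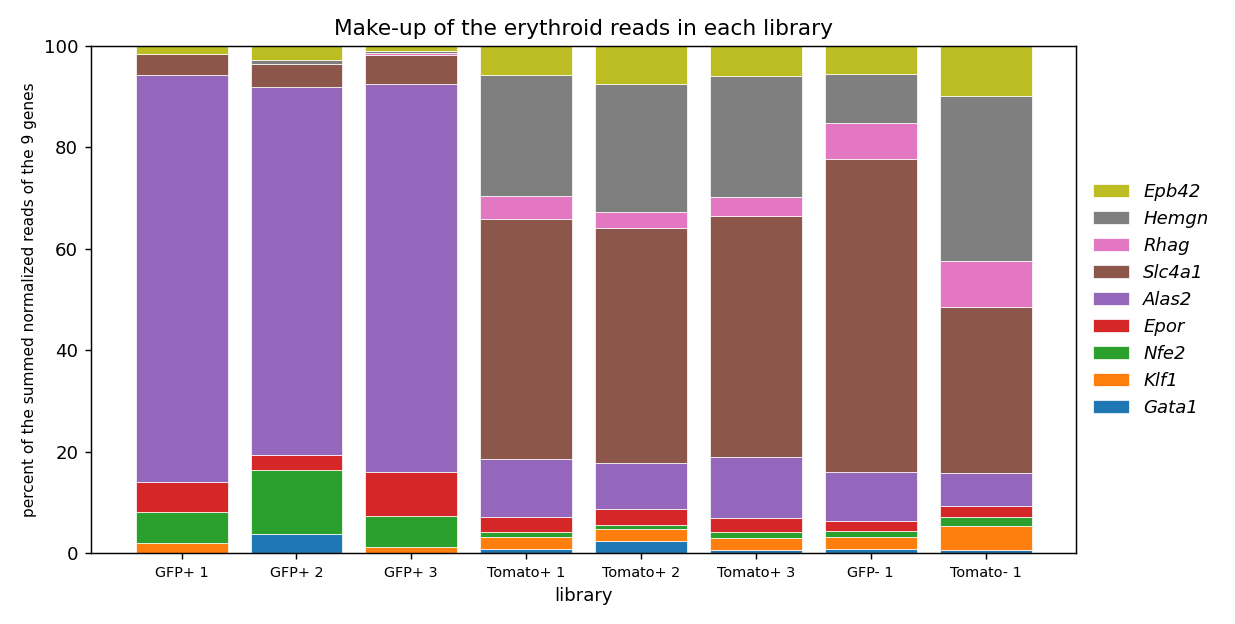
Share of each erythroid gene in the summed normalized reads of the 9 genes, in percent, for each library. Alas2 fills 72.5% to 80.2% of the bar in the 3 GFP+ libraries, against 9.04% to 12.05% in the 3 Tomato+ libraries, where Slc4a1 and Hemgn take most of it. The Alas2 values may hold reads of Apex2, which overlaps it on the other strand.

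Each sorted positive group was then set against the negative library of its own line. Each line had 1 negative library, so fold changes were counted first. A gene was taken as apart if every positive library differed at least 2-fold from the negative one in the same direction, with 50 normalized reads or more on the higher side. For fold counts, shares of all genes are of those that reached 50 there, 14290 in the Hoxb1GFP line and 15088 in the Mef2c-Cre;RosatdT line. In the Hoxb1GFP line 9 of 9 genes were apart as lower in GFP+ than in GFP- cells, where 4.21% of all genes were. In the Mef2c-Cre;RosatdT line 5 of 9 were apart as lower in Tomato+ than in Tomato- cells, where 7.31% of all genes were, namely Klf1, Nfe2, Rhag, Hemgn and Epb42. With limma on all 8 libraries, which assumes that a lone library varies like the sorted groups, 8 of 9 passed as lower in the Hoxb1GFP line, all but Gata1, where 2.8% of all genes did. In the Mef2c-Cre;RosatdT line 2 of 9 passed as lower, Nfe2 and Epb42, where 6.31% of all genes did. At 4-fold in place of 2-fold, 7 of 9 were apart in the Hoxb1GFP line, against 1.06% of all genes. In the Mef2c-Cre;RosatdT line 2 of 9 were, Klf1 and Rhag, against 2.21% of all genes.

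As a percentage of the negative library, the GFP+ mean was 0.0838% for Rhag, 0.137% for Hemgn, 0.315% for Slc4a1 and 1.139% for Epb42. It was 1.95% for Klf1, 4.42% for Gata1, 13.1% for Epor, 26.3% for Nfe2 and 31.1% for Alas2. The Tomato+ mean lay between 17.7% (Rhag) and 72.4% (Gata1) of the Tomato- library for all 9 genes. Nfe2 was alike in both lines, with 26.3% in GFP+ cells and 26.3% in Tomato+ cells. For Gata1 the Tomato+ libraries ran from 41.0% to 129% of the Tomato- library, which lay inside their range.

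**Figure D4:**
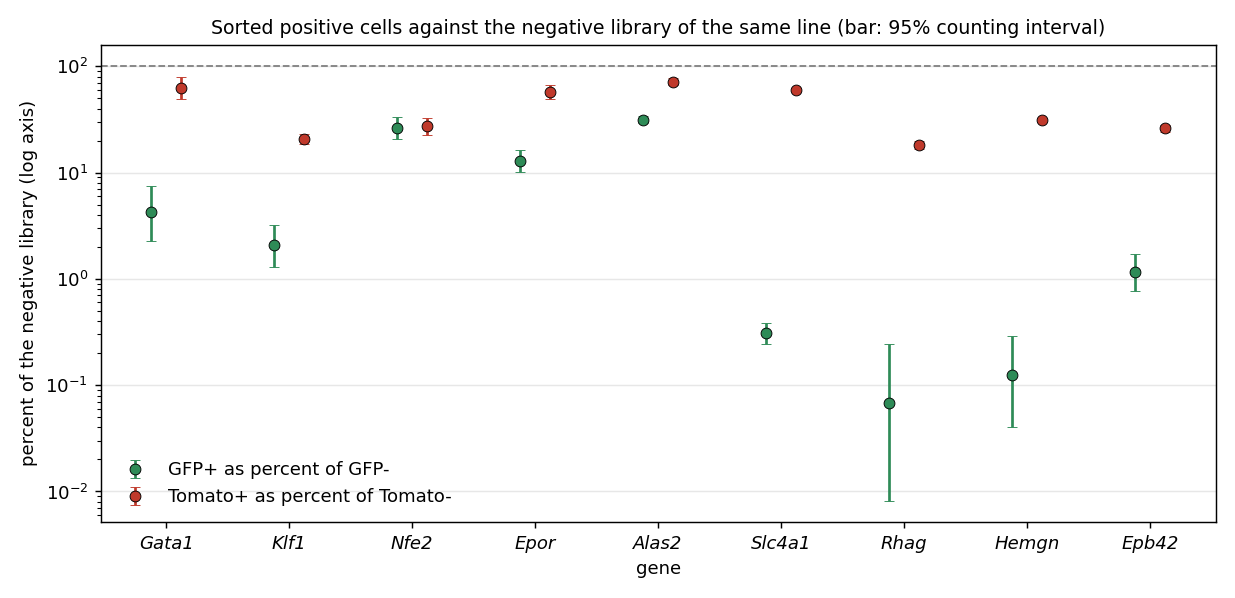
Level of each erythroid gene in sorted positive cells as a percentage of the negative library of the same line, from summed reads corrected for library size, on a log axis with exact 95% counting intervals. The GFP+ points span 0.068% (Rhag) to 31.5% (Alas2), the Tomato+ points 18.1% (Rhag) to 71.7% (Alas2), and for Nfe2 the intervals overlap.

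Whether the positive-to-negative difference itself differed between the lines was tested in 1 limma fit of all 8 libraries, with the lone negative libraries assumed to vary like the others. Lower in the Hoxb1GFP line were 4 of 9 genes, where 5.65% of all genes were. They were Slc4a1 (log2 -7.56, SE 0.47, limma adjusted p = 0.00093), Hemgn (-7.36, SE 0.95, adjusted p = 0.00735), Rhag (-6.70, SE 1.03, adjusted p = 0.0116) and Epb42 (-4.40, SE 0.53, adjusted p = 0.00649). The 3 membrane genes and Hemgn thus passed, and no regulator did. Gata1 had -4.69 (SE 2.15, limma adjusted p = 0.197), Klf1 -3.82 (SE 1.73, adjusted p = 0.193), Epor -2.35 (SE 1.05, adjusted p = 0.187) and Alas2 -1.19 (SE 0.51, adjusted p = 0.169). Nfe2 had 0.02 (SE 0.57, limma adjusted p = 0.985). Without GFP+ replicate 1 the Hemgn value was -6.76. Without GFP+ replicate 2 the count became 7, with Gata1, Klf1 and Epor added (adjusted p of 0.0203, 0.0215 and 0.0331). Without replicate 2 of both groups it became 8, with Nfe2 the exception, and without replicate 3 of both groups it became 3, since Epb42 did not pass (adjusted p = 0.058).

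Between the negative libraries, 4 of 9 genes were at least 2-fold lower in GFP- than in Tomato- cells, where 19.5% of all genes were, and 0 of 9 were higher, where 16.7% were. The lower genes were Hemgn at 0.204 of the Tomato- level, Klf1 at 0.369, Epb42 at 0.385 and Nfe2 at 0.469. Alas2 was at 1.03 and Slc4a1 at 1.29 of the Tomato- level, so that the genes of the set did not differ between the negative libraries by a common factor. At 4-fold only Hemgn was lower in GFP- cells, 1 of 9, where 8.07% of all genes were. In limma with the lone libraries 0 of the 9 passed as lower, where 12% of all genes did, and 2 did at an unadjusted p under 0.05, Hemgn and Epb42.

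The globins, measured by 7 genes, gave the same order of the sorted groups. They took 0.00236% to 0.00429% of the reads outside mitochondrial genes in GFP+ libraries, against 0.594% to 0.742% in Tomato+ libraries, and 1.4% in GFP- and 1.29% in Tomato- cells. All 7 passed as lower in GFP+ than in Tomato+ cells (median log2 difference -7.37). The embryonic beta-like globin Hbb-y averaged 182 normalized reads in GFP+ and 40289 in Tomato+ cells. In GFP+ cells the 7 globins were at 0.163% to 1.86% of the GFP- library, a range that takes in Slc4a1 and Epb42 and lies below Klf1, Gata1, Epor, Nfe2 and Alas2.

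Other genes of the same pathways were read from lists. Of 22 further red cell membrane and skeleton genes tested, 15 were lower and 2 higher in GFP+ than in Tomato+ cells (median log2 difference -2.63). The Kell antigen gene Kel averaged 3.31 normalized reads in GFP+ and 748 in Tomato+ cells, and the urea transporter Slc14a1 averaged 1.34 in GFP+ and 327 in Tomato+ cells. Of 23 genes of heme synthesis and iron handling, 13 were lower and 1 higher (median -0.74). Alad, which acts after Alas2 in the pathway, averaged 105 in GFP+ and 511 in Tomato+ cells, and the mitochondrial iron importer Slc25a37 averaged 2017 in GFP+ and 8648 in Tomato+ cells. Biliverdin reductase B (Blvrb) averaged 22.9 in GFP+ and 171 in Tomato+ cells.

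Of 24 further erythroid transcription factors and cofactors, 13 were lower and 1 higher (median log2 difference -0.72). Among those that averaged 100 or more in the higher group without overlap, the largest differences were in Bcl11a, a repressor of globin genes that neurons also express, with a mean of 218 in GFP+ and 5137 in Tomato+ cells, in the lymphoid and erythroid factor Ikzf1, with 41.3 in GFP+ and 763 in Tomato+ cells, and in Runx1, needed for definitive blood, with 41.1 in GFP+ and 424 in Tomato+ cells. Bcl11a did not follow the erythroid genes in the negative cells, with 86.9 normalized reads in the GFP- and 4837 in the Tomato- library. Of 15 other erythroid genes tested, 12 were lower and 1 higher (median -1.87), among them pyruvate kinase Pklr with a mean of 3.38 in GFP+ against 326 in Tomato+ cells, Trim10 with 3.43 in GFP+ against 133 in Tomato+ cells, and carbonic anhydrase Car2 with 238 in GFP+ against 3363 in Tomato+ cells.

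Of 15 other genes of erythropoietin receptor signalling, 4 were lower and 3 higher in GFP+ than in Tomato+ cells (median log2 difference -0.29), where 20% of all genes were lower and 19.7% higher. The kinase Lyn (-1.50, limma adjusted p = 0.00271) and Stat5b (-1.05, adjusted p = 0.00363) were lower in GFP+ cells, and the kinase Pim1 (1.15, adjusted p = 0.0022) was higher. Epo, the ligand, chosen here after its values were seen, averaged 44.6 normalized reads in GFP+ and 5.00 in Tomato+ cells and did not pass (limma adjusted p = 0.0616).

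**Figure D5:**
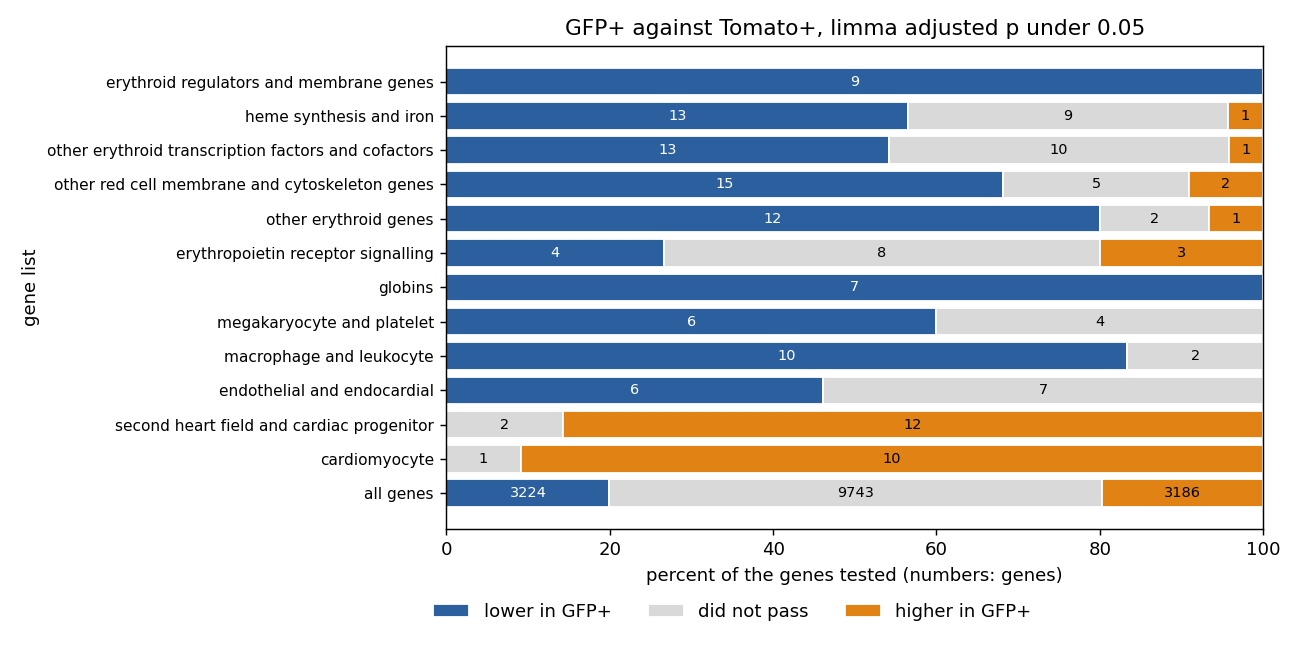
Percentage of the tested genes of each list that were lower, did not pass or were higher in GFP+ than in Tomato+ cells by limma at an adjusted p of 0.05, with the number of genes in each bar. The 9 erythroid genes and the 7 globins are all lower, and over all genes 3224 are lower and 3186 higher.

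Between GFP+ and Tomato+ cells, many markers of other blood cells and some of endothelium were also lower in GFP+ cells. Over all genes tested, 20% were lower and 19.7% higher. Median log2 differences were -4.45 for macrophage and leukocyte genes and -2.25 for megakaryocyte and platelet genes. The endothelial median was -1.15, against -5.26 for the 9 erythroid genes. Of 12 macrophage and leukocyte genes tested 10 were lower in GFP+ cells, with summed levels of 247 to 339 normalized reads in GFP+ libraries, against 2380 to 3099 in Tomato+ libraries. The pan-leukocyte gene Ptprc averaged 1.90 in GFP+ and 270 in Tomato+ cells, and C1qb was at 0 in all 3 GFP+ libraries. The negative cells did not repeat the erythroid order, since the macrophage and leukocyte sum was 548 in GFP- and 2738 in Tomato- cells. The GFP- sum was below that of every Tomato+ library. Between the negative libraries 12 genes of this list could be called, with 50 normalized reads or more on the higher side. They include Cd14, which limma did not test, and leave out Fcer1g. Of them 10 were at least 2-fold lower in GFP- than in Tomato- cells, where 19.5% of all genes that could be called were. Only Coro1a was at least 2-fold higher (91.2 in GFP- and 31.7 in Tomato- cells), where 16.7% of all genes that could be called were. Of 10 megakaryocyte and platelet genes 6 were lower (summed levels of 232 to 390 in GFP+, against 1340 to 1425 in Tomato+ libraries, with 1245 in GFP- and 2188 in Tomato- cells), and Pf4 and Ppbp were at 0 in the GFP+ libraries. Of 13 endothelial genes 6 were lower and 7 did not pass. The endothelial sum was 2185 to 2485 in GFP+ and 3283 to 4087 in Tomato+ libraries, with 3767 in GFP- and 5086 in Tomato- cells. None of these 3 lists had a gene called higher in GFP+ than in Tomato+ cells. Of 14 SHF genes 12 were higher in GFP+ cells, Gata4 among them with a mean of 2200 in GFP+ against 182 in Tomato+ cells. The SHF sum was 16449 to 17961 in GFP+ and 7073 to 7200 in Tomato+ libraries, with 5034 in GFP- and 7136 in Tomato- cells. Of 11 cardiomyocyte genes 10 were higher. The cardiomyocyte sum was 30951 to 35904 in GFP+ and 4376 to 4928 in Tomato+ libraries, with 17440 in GFP- and 2999 in Tomato- cells. The part of these marker lists in the erythroid values was not tested.

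Over the 8 libraries, the gene whose profile of log2 values, centred on its mean, lay nearest to the median profile of the set was Epb42 itself, with a root mean square difference of 0.222. The median profile was made from the members themselves, so that their nearness to it is in part built in, unlike that of other genes. Slc4a1 had rank 12 among genes with a mean of at least 100 (0.898), whereas Hemgn (1.99), Nfe2 (2.16) and Alas2 (2.31) were far down the same order. Of genes outside the set, the nearest was Ank1 (0.499), whose product ankyrin joins band 3 to spectrin. It averaged 46.4 normalized reads in GFP+ and 1826 in Tomato+ cells, with 1869 in the GFP- and 3162 in the Tomato- library. Next came Slc22a4 (0.596), Trim10 (0.62), Slc30a10 (0.651), Redrum (0.665), Ikzf1 (0.739), Acp5 (0.75) and Ccdc92b (0.752). These are descriptions over 8 libraries that share their groups.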

How the data were processed

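Members and gene lists were chosen with earlier results of these data known. Per the labels and methods, amplified cDNA (Ovation V2, from 2 ng RNA, no strand marked) was aligned to mm10 (GRCm38) with STAR 2.5.2, counted with HTSeq and normalized with DESeq2. The deposited values are a signal, reads divided by size factors of the authors. The deposited columns of the authors' own comparison (log2 fold changes, test scores, p-values, adjusted p-values and a mean) were not used, and 0 other library columns were left out. Multiplying by the size factor gave whole reads (within 0.01) for 100% of values in every library. On these reads, edgeR's quasi-likelihood test called 3159 genes lower and 3080 higher, and DESeq2 3618 and 3542.

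The fit used limma 3.58.1 with a trend (R 4.3.3), on log2(normalized reads + 1), for genes with a mean of at least 10, with Benjamini-Hochberg adjustment. Alternatives used edgeR 4.0.16 and DESeq2 1.42.0. Fits were tested on simulated data. Exon lengths came from GENCODE M21. Named were all members, up to 3 called genes per list with the largest change (mean of at least 100 in the higher sorted group, no overlap), or the 2 most abundant if none qualified, and the 8 nearest profiles (mean of at least 100, no Gm or Rik symbols). 1 gene that this rule named is not reported here. Intervals cover counting error only.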

Additional observations from a re-analysis of the deposited data

Results flagged for a closer look

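For 4 genes the difference between positive and negative cells was not the same in the 2 lines by limma's test of that difference. In the Hoxb1GFP line, relative to the Mef2c-Cre;RosatdT line, the log2 difference was -7.56 for Slc4a1, -7.36 for Hemgn, -6.70 for Rhag and -4.40 for Epb42. Slc4a1 averaged 24.2 normalized reads in GFP+ and 7672 in GFP- cells, against 3553 in Tomato+ and 5955 in Tomato- cells. Each line had 1 negative library, so the spread of the negative cells was taken from the sorted positive groups, and the part of marker genes of other cell types in these values was not tested.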

How the results depend on the processing

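The direction of all 9 genes between GFP+ and Tomato+ cells held in 18 of 18 alternatives, and Nfe2 was the only one to lose its call (in 7 of them). With 1 library left out, 8 to 9 members and 2134 to 3875 of all genes were lower and 2068 to 4038 higher. Without replicate 2 of both groups 6492 were lower and 6414 higher, and without replicate 3 of both groups 1395 and 1356. Averaging replicates 1 and 3 gave 1482 lower and 1422 higher over all genes. Scaling to reads outside mitochondrial genes moved the median log2 difference of all genes to -0.14. Leaving out a replicate of both groups was chosen after seeing the data.

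For the difference between the lines, 4 to 7 members passed with 1 library left out, with 225 to 2237 genes lower and 215 to 2028 higher. Without replicate 2 of both groups it was 8 members, 5883 lower and 5565 higher, and without replicate 3 of both groups 3 members, 25 lower and 28 higher. DESeq2 gave 1447 lower and 1259 higher, and averaging replicates 1 and 3 gave 95 lower and 94 higher. The Nfe2 value, 0.02, turned to -0.0069 with TMM scaling, -0.14 with scaling outside mitochondrial genes, -0.0042 with DESeq2, and -0.21 without replicate 2 of both groups. With 1 library left out it ran from -0.10 (without Tomato+ replicate 2) to 0.14 (without Tomato+ replicate 3), with -0.08 without GFP+ replicate 2, and it passed no test. The cause of these shifts was not tested. Members lower in Tomato+ than in Tomato- cells at 4-fold were Klf1 and Rhag. Limma on all 8 libraries passed other genes there, Nfe2 and Epb42. At 4-fold only Hemgn was lower in GFP- than in Tomato- cells, and limma passed no member. Both limma results rest on lone libraries.

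The labels do not say whether same-numbered libraries of the 2 groups were handled together. Their deviations correlated at 0.0228, 0.015 and 0.0111, which cannot settle this. Mitochondrial reads made up 42.4% in GFP+ replicate 2 and 43.7% in Tomato+ replicate 2. In replicates 1 and 3 of both groups they made up 32.8% to 34.5%. With the replicate number as a block, 3009 genes were lower and 2982 higher in GFP+ cells, and for the difference between the lines 283 lower and 288 higher. Nfe2 did not pass under the block (adjusted p = 0.0626). Of 315 values of members under alternatives, 293 kept direction and call. Fitted differences of genes with few GFP+ reads (Gata1, Klf1, Rhag, Hemgn) move with the pseudocount, and a library with 0 reads allows up to 2.16 to 4.53 normalized reads.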
